A study of Mus musculus with 8 samples.

Results

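The immediate early genes Fos, Fosb, Jun, Junb, Egr1, Ier2, Ier3, Atf3, Dusp1 and Nr4a1 were examined in sorted epithelial cells of the stomach of C57BL/6 mice. These 10 genes were the rows whose gene numbers map to those symbols, out of 38920 rows in each library's table. Total RNA from the sorted cells was sequenced in 4 libraries from animals on a high fat diet, titled HFD 22, 23, 26 and 27, and in 4 libraries titled ND 15-17-18, 16, 19 and 20, which the series describes as controls. The comparison asks how expression in these cells differs between the diets. The labels give no age, sex, time on the diet or composition of either diet, nor the number of mice behind each library. The title ND 15-17-18 lists several numbers, and whether it is a pool of animals is not stated. The spread behind each p-value is that between these libraries, which may be partly technical.

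Immediate early genes are transcribed within minutes of a stimulus without new protein synthesis, through kinase cascades that act on factors already bound to their promoters, such as SRF with its ETS partners and CREB. Their messages are short-lived. Growth factors, stress and the enzymatic dissociation of a tissue into single cells are all known to switch them on, so in sorted cells their RNA can reflect both the tissue and the handling before lysis. The labels give no time between dissection and lysis, and tissue that was not dissociated was not analysed here.

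Levels below are log2(value + 1) after each library was scaled to the same median ratio over its commonly detected rows. They serve to compare libraries for a given gene, not genes with each other, because it is not stated whether values were divided by gene length. Of the rows, 27401 had enough signal to test, and all 10 immediate early genes were among them, above 0 in all 8 libraries. Some libraries stood apart. In ND 15-17-18 the 20 highest rows took 85.7% of the deposited total, and in ND 19 they took 59.1%, against 27.8% to 43.1% in the other libraries. HFD 23 was the least like the others, with a median Spearman correlation of 0.892 to the other libraries, against 0.919 for ND 15-17-18 and 0.955 to 0.968 for the rest. Each result below that turns on HFD 23 is given with and without it. Gastric epithelial markers fitted the label, with 13 of 13 above 0 in all libraries and a summed level of 21.74 to 21.91 in HFD and 21.17 to 21.75 in ND.

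The promoters of 8 of the 10 genes were found in the RefSeq table of GRCm38.p6 (mm10), all but Egr1 and Ier2. In the 250 bases upstream of the start, the CREB/ATF half-site TGACG, read on both strands, occurred in 6 of the 8 (Fos, Fosb, Junb, Atf3, Dusp1 and Nr4a1), against 17.8% of 32851 windows of that length. The full cAMP response element TGACGTCA, which contains that half-site on each strand, was found in Dusp1 and in 1.55% of windows. The TATA box TATAAA was found in Fos and in 12.4% of windows. The EGR site GCGNGGGCG was found in Fosb and Nr4a1 and in 4.70% of windows. The AP-1 site TGANTCA (6.75% of windows) and the CArG box (1.47% of windows) were in none of the 8 windows. Sites farther upstream, and those of Egr1 and Ier2, were not searched. The table's start is not the outermost end of the gene for Nr4a1, whose window lies within the gene's span, nor for Fosb, whose window overlaps it. A match is a description of the letters and not evidence of binding. The windows of 4 genes whose library patterns are contrasted below are printed 5′ to 3′ in the gene's direction, with the half-site in capitals on either strand. They are Fos at chr12:85473640-85473889 (plus strand), Junb at chr8:84978749-84978998 (minus), Atf3 at chr1:191183334-191183583 (minus) and Dusp1 at chr17:26508473-26508722 (minus).
Fos: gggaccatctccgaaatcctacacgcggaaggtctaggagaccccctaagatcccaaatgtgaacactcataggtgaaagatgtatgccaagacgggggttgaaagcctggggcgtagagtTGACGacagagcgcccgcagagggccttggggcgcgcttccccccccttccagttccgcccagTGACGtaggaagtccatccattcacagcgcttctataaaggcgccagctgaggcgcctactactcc
Junb: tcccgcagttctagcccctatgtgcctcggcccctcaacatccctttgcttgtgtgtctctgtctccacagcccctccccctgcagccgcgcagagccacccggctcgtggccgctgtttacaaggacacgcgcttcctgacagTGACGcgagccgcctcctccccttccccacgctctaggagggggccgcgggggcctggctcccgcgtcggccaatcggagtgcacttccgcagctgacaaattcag
Atf3: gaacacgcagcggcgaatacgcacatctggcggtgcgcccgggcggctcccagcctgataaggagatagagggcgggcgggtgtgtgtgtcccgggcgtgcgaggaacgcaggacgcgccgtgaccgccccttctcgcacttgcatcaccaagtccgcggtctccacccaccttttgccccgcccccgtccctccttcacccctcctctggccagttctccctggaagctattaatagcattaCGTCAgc
Dusp1: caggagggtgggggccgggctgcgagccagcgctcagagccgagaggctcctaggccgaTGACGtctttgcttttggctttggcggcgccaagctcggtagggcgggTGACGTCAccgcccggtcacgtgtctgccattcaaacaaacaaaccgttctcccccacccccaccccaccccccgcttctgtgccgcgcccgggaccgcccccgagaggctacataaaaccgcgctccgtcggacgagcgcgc
The Fos half-sites begin 129 and 66 bases upstream of the start, with the TATA box at 33. In Junb the half-site begins at 106 bases and in Atf3 at 7. Dusp1 has half-sites at 191, 143 and 140 bases, and those at 143 and 140 form the full element. All 4 printed windows are among the 6 with the half-site, which the windows of Jun and Ier3 lack. Whether the half-site bears on the levels was not tested.

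None of the 10 genes passed the test between the diets. The number called was 0 of 10 by limma with Benjamini-Hochberg adjustment over all rows, against 0.0109% of all rows (3 of 27401; 0.00365% called higher and 0.0073% lower in HFD), and adjusted p ran from 0.354 to 0.996. At an unadjusted p under 0.05 there was 1 of 10, Egr1, against 10.5% of all rows. Among the 9904 rows whose mean level lies within the range of the 10 genes, it was 1685. The HFD and ND libraries overlapped for all 10 genes, while 7.84% of all rows had groups that do not overlap. Among the 9904 rows of that level, they did not overlap for 628 with HFD below and 633 with HFD above. Differences, HFD minus ND on the log2 scale, were negative for 8 genes and positive for Dusp1 and Nr4a1. Their median was -0.22, against 0.12 over all rows tested and 0.04 over rows of that level. The exact two-sided permutation p per gene ran from 0.0857 to 1, where the smallest that 70 divisions of 8 libraries allow is 0.0286. In such bulk samples, fewer cells of a type and less RNA per cell cannot be told apart.

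Fos and Fosb encode FOS family proteins, which form the AP-1 transcription factor with JUN partners. Fos (chromosome 12, 85473890 to 85477274) had levels of 11.06, 12.51, 11.20 and 11.42 in HFD 22, 23, 26 and 27, against 11.83, 11.82, 12.18 and 12.62 in ND 15-17-18, 16, 19 and 20. HFD 23 and ND 20 were the 2 highest libraries, and the other 3 HFD libraries lay below all 4 ND libraries. The difference was -0.57 ± 0.32 (SE; 95% interval -1.30 to 0.17; limma adjusted p = 0.564), and without HFD 23 it was -0.89 ± 0.20 (adjusted p = 0.316). Fosb (chromosome 7, 19302696 to 19310118) had 10.09, 11.63, 9.88 and 10.29 in HFD, against 10.85, 10.56, 11.35 and 10.95 in ND, in the same order of libraries. HFD 23 was the highest of all 8, and the other 3 HFD libraries again lay below all 4 ND libraries. The difference was -0.46 ± 0.36 (95% interval -1.28 to 0.37; adjusted p = 0.663), and -0.84 ± 0.19 without HFD 23 (adjusted p = 0.316).

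Jun and Junb encode the partners that bind DNA together with the FOS proteins. Jun (chromosome 4, 95049036 to 95052222) varied least of the 10, with 11.03, 11.89, 11.29 and 11.36 in HFD and 11.26, 11.28, 11.76 and 11.67 in ND. HFD 23, ND 19 and ND 20 were its high libraries, and the difference was -0.10 ± 0.19 (95% interval -0.54 to 0.33; adjusted p = 0.861), and -0.27 ± 0.16 without HFD 23. Junb (chromosome 8, 84976909 to 84978748) had 10.63, 11.17, 10.81 and 10.40 in HFD, against 10.50, 10.63, 11.41 and 11.44 in ND. ND 19 and ND 20 stood highest, followed by HFD 23, and the other 5 libraries lay together. The difference was -0.24 ± 0.25 (95% interval -0.80 to 0.33; adjusted p = 0.739), and -0.38 ± 0.25 without HFD 23.

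Egr1, a zinc finger transcription factor that binds GC-rich promoters, had the most negative difference of the 10. Egr1 (chromosome 18, 34861207 to 34864956) had 9.74, 10.66, 9.82 and 9.77 in HFD, against 10.53, 10.31, 11.40 and 11.57 in ND. HFD 23 lay between ND 15-17-18 and ND 19, and the other 3 HFD libraries, with an SD of 0.037, lay below all ND libraries. The means were 9.998 ± 0.44 in HFD and 10.95 ± 0.62 in ND (SD, n = 4 each). The difference was -0.95 ± 0.32 (SE; 95% interval -1.68 to -0.22), which did not pass after adjustment over all rows (limma adjusted p = 0.354). The exact permutation p for Egr1 was 0.0857. Without HFD 23 the Egr1 difference was -1.17 ± 0.30 (limma adjusted p = 0.356).

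Atf3, a stress-induced bZIP factor of the CREB/ATF family, and Nr4a1, an orphan nuclear receptor induced by many of the same signals, complete the transcription factors. Atf3 (chromosome 1, 191170296 to 191183333) had 9.10, 10.82, 9.35 and 9.41 in HFD, against 9.84, 9.62, 9.72 and 9.54 in ND. The ND libraries were close together, HFD 23 lay above them and the other 3 HFD libraries below them. The difference was -0.01 ± 0.33 with all libraries (95% interval -0.75 to 0.74; adjusted p = 0.996) and -0.39 ± 0.14 without HFD 23 (adjusted p = 0.472). Nr4a1 (chromosome 15, 101253902 to 101274795) had 8.40, 9.96, 9.03 and 8.74 in HFD, against 8.62, 8.23, 9.56 and 9.05 in ND. Its high libraries were HFD 23 and ND 19, and the remaining libraries of the groups interleaved. The difference was 0.16 ± 0.37 (95% interval -0.67 to 1.0001; adjusted p = 0.886), and -0.15 ± 0.30 without HFD 23.

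Dusp1 encodes a phosphatase that switches off MAP kinases and so limits the response that induces it. Dusp1 (chromosome 17, 26505591 to 26508472) had 7.65, 10.65, 7.93 and 8.07 in HFD, against 7.57, 7.20, 8.38 and 7.95 in ND. HFD 23 was 5.97-fold above the next HFD library, a gap of 2.58 on the log2 scale, and the other 7 libraries interleaved. The difference was 0.80 ± 0.64 (95% interval -0.66 to 2.26; adjusted p = 0.666) and 0.11 ± 0.29 without HFD 23. The range of Dusp1 over the 8 libraries, 3.44 on the log2 scale, was the widest of the 10 genes.

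Ier2, a nuclear protein of the early response, and Ier3, a stress-inducible protein tied to cell survival, followed ND 19 and ND 20 more than HFD 23. Ier2 (chromosome 8, 84661331 to 84662852) had 10.17, 10.74, 10.33 and 10.38 in HFD, against 10.11, 10.02, 11.07 and 11.23 in ND. ND 19 and ND 20 were the highest libraries and ND 15-17-18 and ND 16 the lowest, with all HFD libraries in between. The difference was -0.20 ± 0.29 (95% interval -0.84 to 0.44; adjusted p = 0.810), and -0.31 ± 0.30 without HFD 23. Ier3 (chromosome 17, 35821713 to 35822911) had 7.65, 7.79, 7.30 and 7.16 in HFD, against 7.24, 6.97, 8.37 and 8.42 in ND. ND 19 and ND 20 were again the highest and ND 16 the lowest, and the difference was -0.28 ± 0.35 (95% interval -1.07 to 0.52; adjusted p = 0.788), and -0.38 ± 0.39 without HFD 23.

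**Figure D1:**
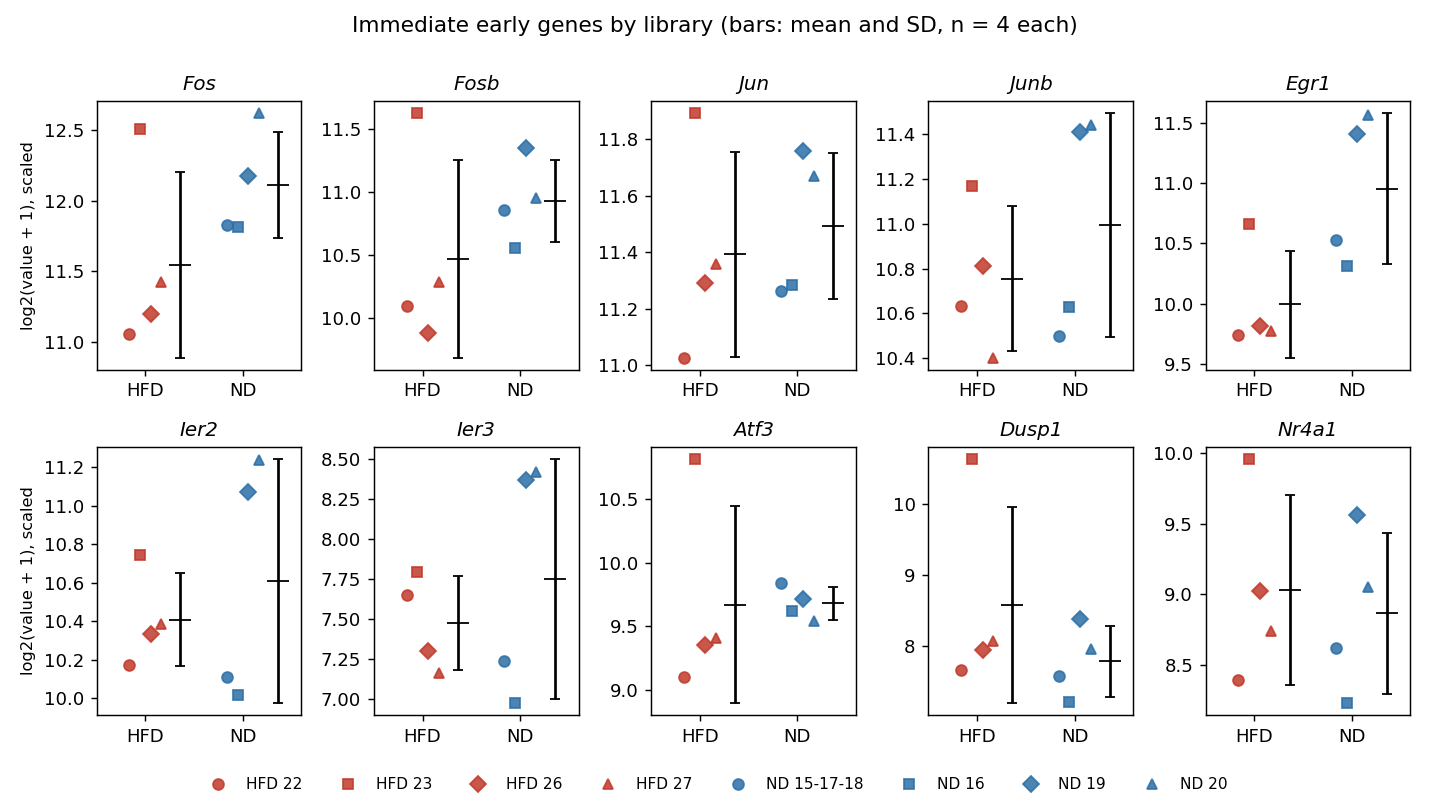
Level of each of the 10 immediate early genes in each library (log2(value + 1) after scaling; the axis of each panel has its own range), with HFD libraries in red and ND libraries in blue; bars are the mean and SD (n = 4 each). HFD 23, the red square, is the highest HFD library in 10 of 10 panels, and the groups overlap in all of them.

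What the genes shared was an order of libraries that cut across the diets. HFD 23 was the highest HFD library for 10 of 10 genes, against 31.0% of all rows and 28.5% of the 9904 rows whose mean level lies within the range of the 10 genes. ND 19 and ND 20 were the upper 2 ND libraries for 9 of 10, against 16.9% of all rows and 23.8% of rows of that level, with Atf3 the exception. HFD 23, ND 19 and ND 20 were together the upper 3 of 8 for 8 of 10 genes, all but Atf3 and Dusp1, against 1.58% of all rows and 2.38% of rows of that level. Genes of 1 response share these libraries and are not independent, so the counts describe the 8 libraries. The highest of all libraries was HFD 23 for Fosb, Jun, Atf3, Dusp1 and Nr4a1, and ND 20 for Fos, Junb, Egr1, Ier2 and Ier3. Both groups therefore held libraries with high and with low levels. The median deviation of the 10 genes from their own means was -0.54, 0.56, -0.28 and -0.34 in HFD 22, 23, 26 and 27, against -0.25, -0.20, 0.55 and 0.41 in ND 15-17-18, 16, 19 and 20.

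**Figure D2:**
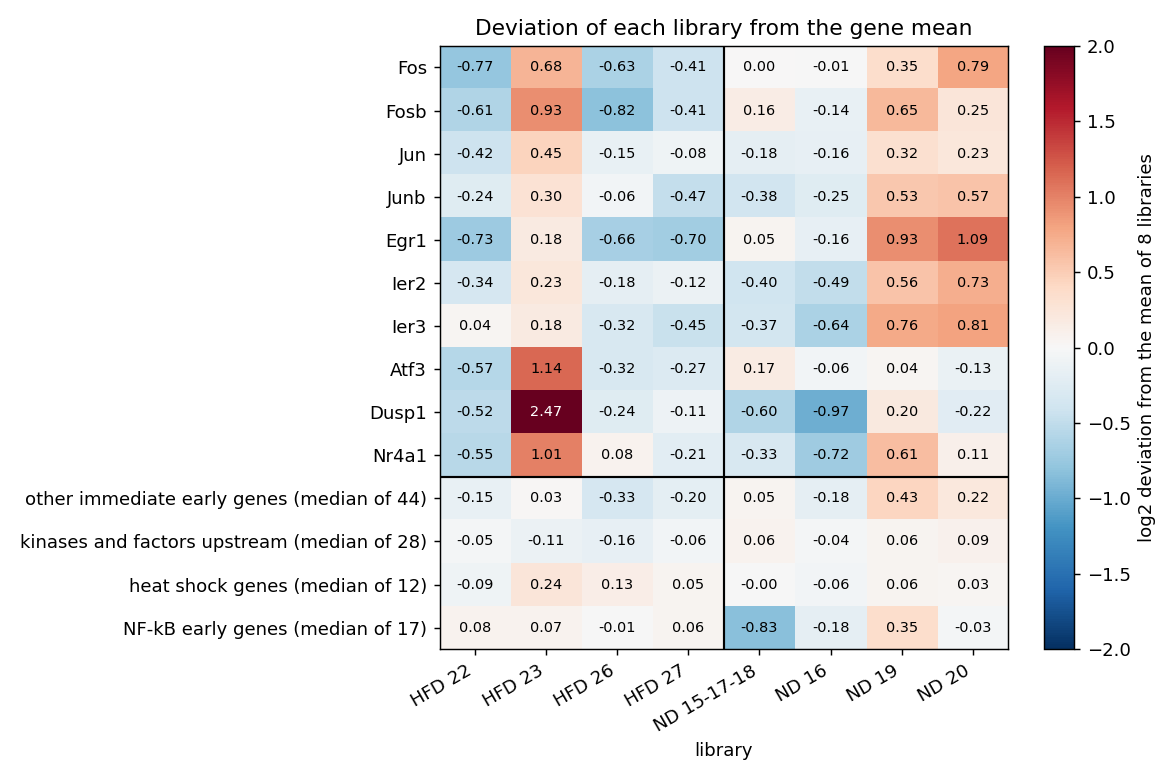
Deviation of each library (columns, HFD left of the vertical line and ND right of it) from the gene's mean over 8 libraries, on the log2 scale, for the 10 genes and, below the horizontal line, as the median of 4 related lists. Among the 10 genes, red cells gather in HFD 23, ND 19 and ND 20, with Dusp1 in HFD 23 at 2.47, drawn at the end of the colour scale. In HFD 23 the lists stand at 0.03 (other immediate early genes), -0.11 (upstream), 0.24 (heat shock) and 0.07 (NF-kB).

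The spread between libraries of the same diet was wide for these genes. The residual SD within groups ran from 0.315 for Jun to 1.05 for Dusp1. Its median was 0.548 over the 10 genes, against 0.235, with quartiles of 0.167 and 0.353, among the 9904 rows of the same level range. All 10 genes lay above that median and 9 above the upper quartile, with Jun the exception. Fos was at percentile 88.9 of those rows, Egr1 at 89.0, Nr4a1 at 91.9 and Dusp1 at 96.7. Without HFD 23 the median of the 10 became 0.411, against 0.231 for the rows of that level, and 6 of the 10 lay above the upper quartile of 0.340. The residual SD of Dusp1 was then 0.412. That of Atf3 was 0.556 with all libraries and 0.143 without HFD 23, at percentile 17.5 of rows of that level. The SD differed between groups by gene, with 1.39 in HFD and 0.504 in ND for Dusp1, and 0.240 in HFD and 0.634 in ND for Ier2.

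**Figure D3:**
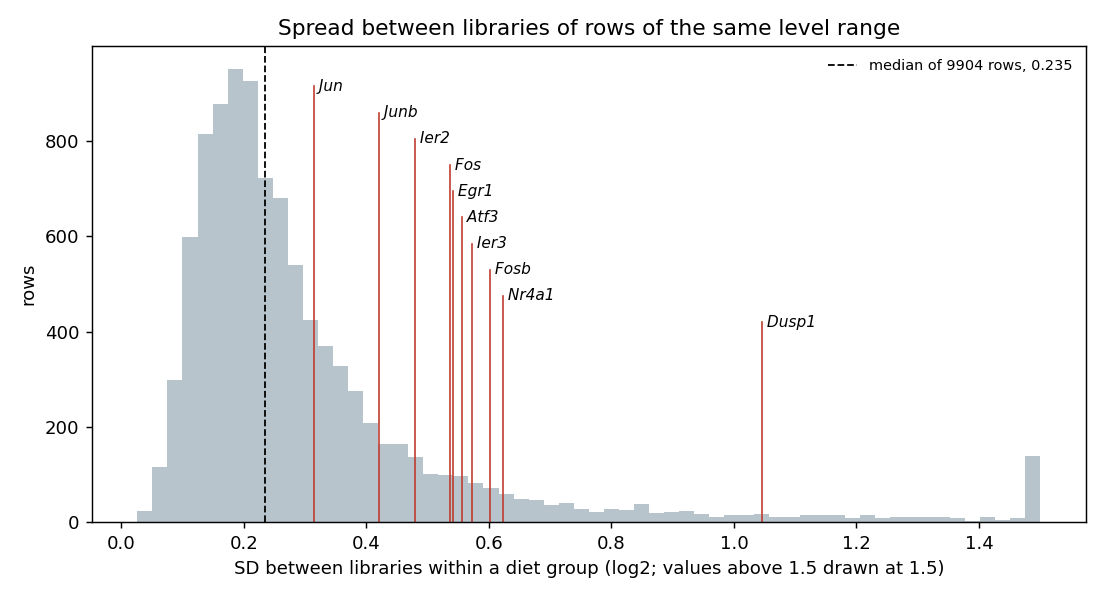
Histogram of the residual SD between libraries within a diet group (log2) for the 9904 rows whose mean level lies in the range of the 10 genes, with a red line per gene and a dashed line at the median of 0.235. The 10 red lines lie to the right of the dashed line, from Jun at 0.315 to Dusp1 at 1.05.

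Without HFD 23, 4 of 10 genes had all HFD libraries below all ND libraries, against 4.39% of all rows in the same setting. They were Fos, Fosb, Egr1 and Atf3, and all 4 had an unadjusted p under 0.05, against 9.06% of all rows. The number called stayed at 0 of 10, against 0.0111% of all rows, and the lowest adjusted p was 0.316. In that setting 9 of the 10 differences were negative. Their median was -0.38, against 0.12 over all rows and 0.03 over rows in the level range of the 10 genes. HFD 23 was the highest HFD library for all 10 genes but for only 31.0% of all rows. Leaving it out thus lowers the HFD mean and maximum of each of the 10. The shares of all rows are therefore no like yardstick for these counts. With ND 15-17-18 left out as well, 4 of 10 genes again had HFD below ND, against 5.92% of all rows. After scaling, HFD 23 alone decides whether the groups of Fos, Fosb, Egr1 and Atf3 overlap. With the deposited values, ND 15-17-18 was the lowest library for all 4, and their groups overlap with or without HFD 23. The labels give no reason to set HFD 23 apart. However, the column headers of the deposited tables of HFD 23 and HFD 27 have a form that the other 6 tables do not share. Whether those libraries were processed differently was not tested.

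Whether values were scaled or used as deposited decided the sign of most differences. On the deposited scale, where each library has the same total, the median row was 0.90 higher in HFD on the log2 scale, and ND 15-17-18 was the lowest library for all 10 genes. There 9 of 10 genes were higher in HFD and 1, Egr1, was lower, with a median difference of 0.64, which lies below the 0.90 of all rows. Fos differed by 0.29 on that scale, Atf3 by 0.85, Dusp1 by 1.65 and Egr1 by -0.10, and adjusted p over the 10 genes ran from 0.490 to 0.932, with 0 of 10 called against 0.0584% of all rows. With ND 15-17-18 left out of the deposited values, an alternative chosen after the data were seen, the Fos difference was -0.42 and that of Egr1 -0.86. Fosb (-0.24), Junb (-0.16), Ier2 (-0.13) and Ier3 (-0.21) were then negative as well. Jun (0.06), Atf3 (0.29), Dusp1 (0.97) and Nr4a1 (0.32) were positive. Relative to the median row, the median of the 10 genes was thus the lower on either scale.

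**Figure D4:**
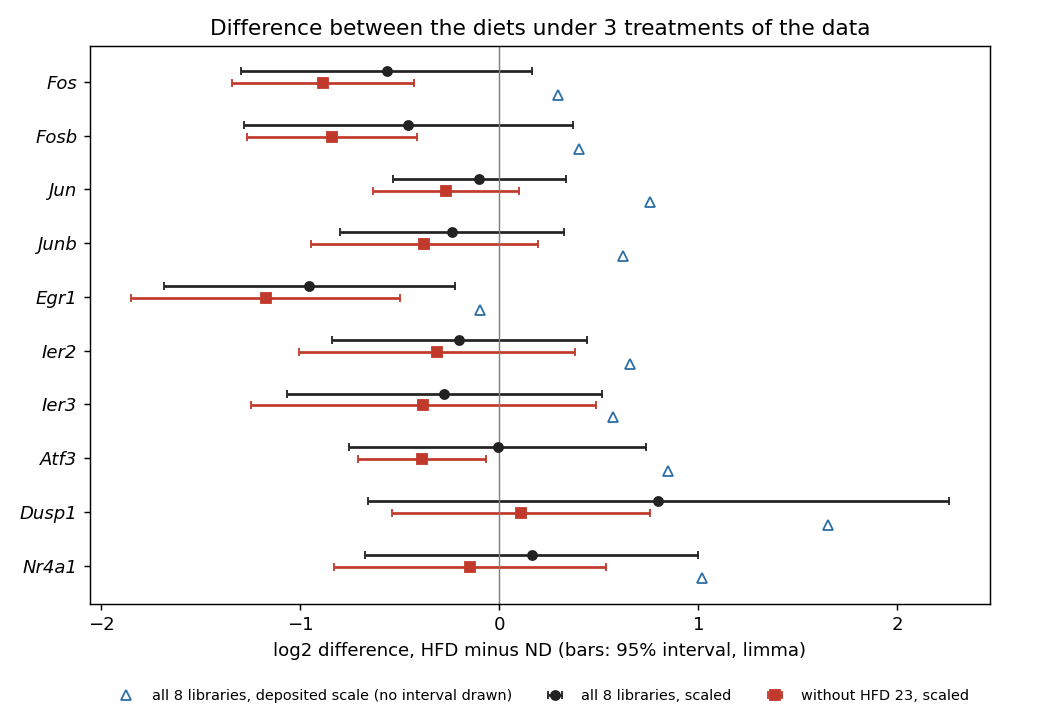
Difference between the diets for each gene, HFD minus ND on the log2 scale, with all 8 libraries after scaling (black circles), without HFD 23 after scaling (red squares) and with all 8 libraries as deposited (open triangles); bars are 95% intervals from limma. The black intervals cover 0 for all genes but Egr1, and for Fos, Fosb, Egr1 and Atf3 the interval without HFD 23 lies below 0, before any adjustment over all rows.

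Since the genes moved together between libraries, each was also expressed relative to the mean of the other 9 in the same library, a comparison added after the data were seen that barely depends on library scaling. Egr1 stood at 0.21, -0.13, 0.14 and 0.08 in HFD, against 0.77, 0.72, 0.98 and 1.25 in ND. All HFD libraries, HFD 23 included, were below all ND libraries, as for 0.117% of all rows measured the same way, and the difference was -0.86, or -0.79 without HFD 23. Dusp1 stood at -2.11, -0.15, -1.96 and -1.81 in HFD, against -2.52, -2.73, -2.38 and -2.77 in ND. All HFD libraries were above all ND libraries, as for 2.96% of all rows, with a difference of 1.09, or 0.64 without HFD 23, the farthest library. The other 8 genes overlapped, with differences from -0.42 for Fos to 0.39 for Nr4a1. Such a ratio describes Egr1 and Dusp1 against the rest and does not show which of them changed, if any did. No test was made on it, since the pattern was noticed in these libraries. The shares of 0.117% and 2.96% are no like yardstick for Egr1 and Dusp1. The subtraction takes a shared library pattern out of genes that follow the others. It puts that pattern into rows that do not, and the median Pearson r of other rows with these genes was -0.01. Without the subtraction the shares of all rows were 3.12% with HFD below and 4.72% with HFD above.

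**Figure D5:**
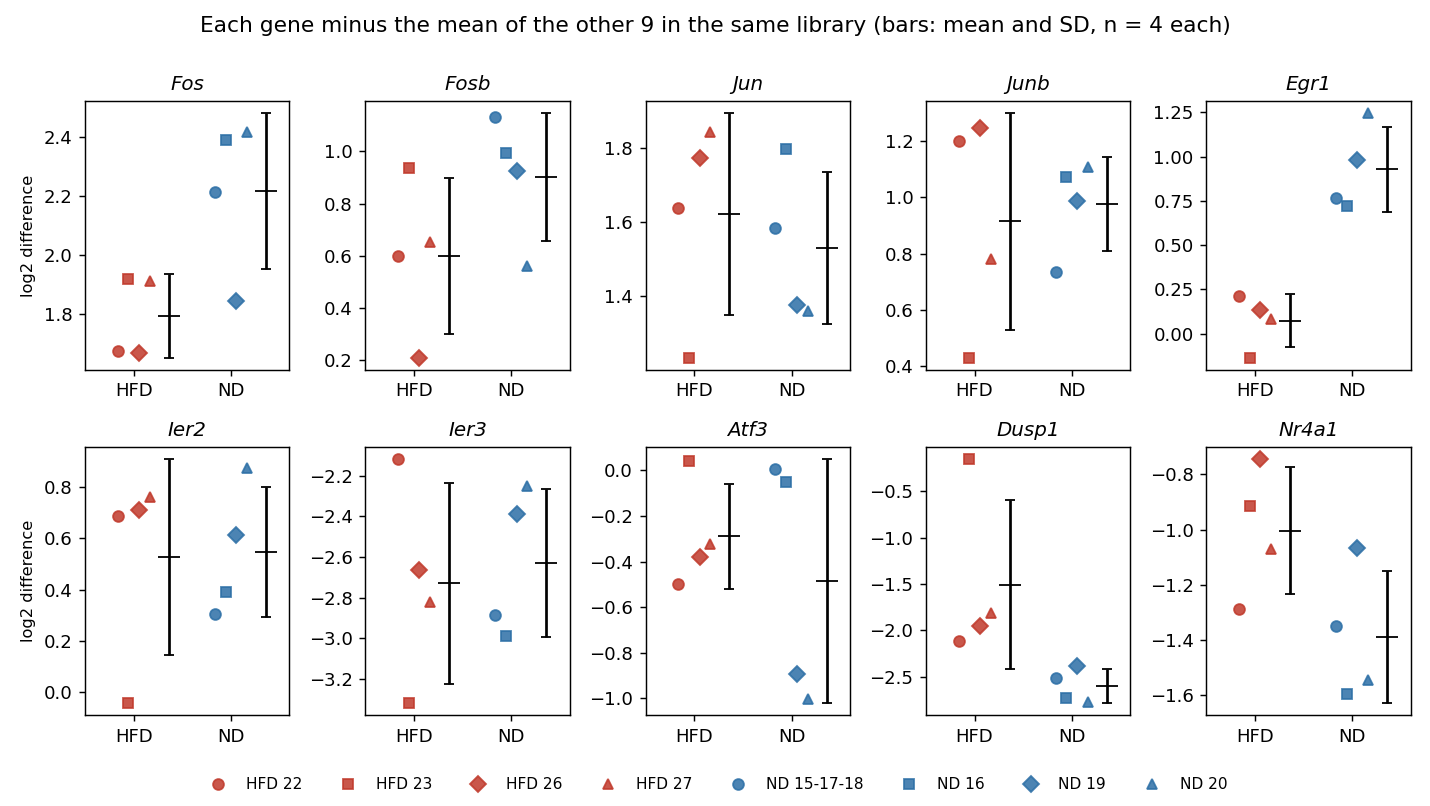
Level of each gene minus the mean level of the other 9 in the same library (log2; each panel has its own range), with HFD in red and ND in blue; bars are the mean and SD (n = 4 each). The groups are apart for Egr1, with HFD below, and for Dusp1, with HFD above, and overlap in the other 8 panels.

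Other genes of the immediate early response were taken from a list of 44, chosen with earlier results of these data known. Of these, 0 of 44 were called higher and 1 was called lower in HFD, against 0.00365% and 0.0073% of all rows. The median difference was -0.17 (deposited scale 0.69), and 26 were negative and 18 positive. Their median deviation was -0.15, 0.03, -0.33 and -0.20 in HFD, against 0.05, -0.18, 0.43 and 0.22 in ND. As a list they were thus high in ND 19 and ND 20 but not in HFD 23. The called gene was Klf4, a zinc finger factor of differentiating epithelia that is also serum-inducible, with 11.97, 12.03, 12.01 and 12.14 in HFD, against 13.44, 13.14, 13.58 and 13.66 in ND. The Klf4 libraries lay close together within each diet and the groups were well apart, unlike any of the 10 genes above. Klf4 was lower by 1.42 ± 0.12 in HFD (SE, log2; limma adjusted p = 0.0069). Where leaving out libraries lost the call, its difference was about as large. It was -1.43 without ND 15-17-18 (adjusted p = 0.0515), -1.38 without ND 19 (0.0650), -1.355 without ND 20 (0.0699) and -1.42 without both HFD 23 and ND 15-17-18 (0.107). On the deposited scale the call was lost as well, and the Klf4 difference was smaller, at -0.56, with an adjusted p of 0.610.

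Per1, a clock gene that also responds to CREB, and Dusp5, a nuclear MAP kinase phosphatase, were lower in all HFD libraries than in any ND library without passing the test. Per1 had 8.67, 8.61, 8.51 and 8.68 in HFD, against 10.89, 9.06, 9.82 and 9.62 in ND, a difference of -1.23 ± 0.32 (limma adjusted p = 0.255; deposited -0.37). Dusp5 had 6.97, 7.36, 7.27 and 7.17 in HFD, against 7.97, 7.92, 8.17 and 8.12 in ND, a difference of -0.85 ± 0.17 (adjusted p = 0.188; deposited -0.0029). Gadd45b, a stress-response gene that activates p38 signalling, had the opposite order, with 6.88, 6.74, 6.65 and 6.84 in HFD, against 5.99, 6.36, 6.27 and 6.55 in ND, and a difference of 0.49 ± 0.24 (adjusted p = 0.510; deposited 1.32). In all, groups did not overlap for 8 of the 44 with HFD below, against 3.12% of all rows, and for 1 of the 44 with HFD above, against 4.72% of all rows. Among the 9904 rows in the level range of the 10 genes, HFD lay below for 628 and above for 633. These shares are no like yardstick for the list, which was chosen with earlier results known and includes genes outside that level range. With the deposited values the counts for the list were 0 and 1 of the 44, with 3 differences negative and 41 positive. Egr3, a relative of Egr1, behaved as Dusp1 did in HFD 23, with 4.67, 9.47, 4.08 and 5.14 in HFD, against 4.62, 4.49, 5.67 and 3.79 in ND. Its difference was 1.199 ± 1.09 with HFD 23 and -0.01 without it. Cebpd, a bZIP factor of the acute phase, had 6.29, 6.12, 6.05 and 6.59 in HFD, against 3.15, 6.07, 6.08 and 6.56 in ND, and its difference of 0.80 ± 0.68 was 0.03 without the low ND 15-17-18.

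The kinases and transcription factors upstream of the immediate early genes were 28 in a list chosen in the same way. Of these, 0 were called in either direction, against 0.0109% of all rows. Their median difference was -0.05 (deposited scale 0.80), 20 were negative and 8 positive, and their median deviation per library stayed between -0.16 and 0.09. As a list they did not share the high values of HFD 23, ND 19 and ND 20. Map2k3, a kinase of the p38 pathway, had 8.45, 8.86, 8.69 and 8.70 in HFD, against 10.55, 9.45, 9.77 and 9.498 in ND, a difference of -1.14 ± 0.23 (limma adjusted p = 0.196; deposited -0.28). The CREB relative Atf1 differed by -0.59 ± 0.16 (adjusted p = 0.258; deposited 0.26) and the SRF coactivator Mrtfa by -0.53 ± 0.18 (adjusted p = 0.347; deposited 0.33), so the sign of these turned with the scaling. HFD lay below ND in every library for 4 of the 28, against 3.12% of all rows and 628 of the 9904 rows in the level range of the 10 genes. Those shares are no like yardstick for a list chosen with earlier results known. Among the highest differences were those of Elk1, an ETS partner of SRF, at 0.71 ± 0.70 and of Crem, a CREB relative, at 0.45 ± 0.36. Elk1 had 7.72, 10.89, 7.64 and 7.76 in HFD, against 8.10, 7.73, 7.46 and 7.90 in ND, and its difference was -0.09 without HFD 23.

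Among all other rows, 5 named genes followed the mean standardized level of the 10 genes most closely over the 8 libraries. They were Trpc1 (Pearson r = 0.966), a cation channel, Zswim4 (0.959), Ddit3 (0.955), the stress factor CHOP, C2cd4b (0.946) and Arc (0.934), itself an immediate early gene of neurons. Spearman's rho ran from 0.857 for C2cd4b to 0.952 for Ddit3, and without HFD 23 and ND 19 the Pearson r ran from 0.907 for Trpc1 to 0.982 for Arc. Of 15663 rows considered, 9 had an r above 0.9 and the median r was -0.01, and the points share their library preparation and scaling. Ddit3 had 7.31, 7.78, 7.35 and 7.35 in HFD, against 7.51, 7.28, 7.84 and 7.65 in ND, with HFD 23, ND 19 and ND 20 the highest of the 8.

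Markers of other cells varied between libraries as well. The summed level of smooth muscle markers was 11.97 to 12.60 in HFD and 9.98 to 11.46 in ND, with 8 of 9 above 0 in all libraries and Lmod1 at 0 in 1. Fibroblast markers summed to 11.52 to 12.73 in HFD and 10.82 to 13.10 in ND (7 of 8 above 0 in all libraries, Lum at 0 in 1), and endothelial markers to 10.23 to 10.85 in HFD and 9.31 to 11.09 in ND (6 of 6 above 0 in all libraries). HFD 23 had the highest HFD sum, and ND 19 the highest ND sum, for smooth muscle, fibroblast and endothelial markers. ND 20 lay below ND 15-17-18 for fibroblast (11.86 against 12.22) and endothelial markers (9.60 against 10.96), and above it for smooth muscle (10.93 against 10.82). The endothelial markers did not move as 1. Leaving out ND 15-17-18 moved the Emcn difference from -1.03 to 0.21, while those of Cdh5, Kdr, Pecam1 and Vwf fell. The median deviation of the endothelial markers was -0.53 in ND 15-17-18 and -0.69 in ND 20. Squamous forestomach markers summed to 11.44 to 12.62 in HFD and 7.16 to 11.58 in ND (7 of 8 above 0 in all libraries, Sprr3 at 0 in 3). ND 19 and ND 20, high in the immediate early genes, had squamous sums of 11.58 and 11.47, against 8.32 in ND 16 and 7.16 in ND 15-17-18. In HFD the order was another. HFD 26, low in the immediate early genes, had the highest squamous sum at 12.62, and HFD 23 at 11.50 lay near HFD 22 (11.44) and HFD 27 (11.45). Leukocyte markers summed to 7.41 to 8.14 in HFD and 7.14 to 8.84 in ND, with 5 of 9 above 0 in all libraries, Cd3e at 0 in 3, Lyz2 in 1, Adgre1 in 2 and Cd52 in 4. The same ND 19 and ND 20 had the lowest leukocyte sums, 7.18 and 7.14, while HFD 23 had the highest HFD sum, 8.14. The part of these cells in the immediate early gene levels was not tested.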

How the data were processed

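RNA-seq was done on 4 HFD and 4 ND libraries of sorted cells. Per the labels' protocols, total RNA was treated with DNase, depleted of ribosomal RNA with a RiboMinus kit and prepared for sequencing by an Ion Total RNA-Seq kit. The submitters' processing notes name the build mm10 and bedtools 2.17.0. The aligner, annotation, normalization and use of strand are not named in any label or header. The authors' deposited values are log2 values in 1 column per library, floored at 0, whose antilogs sum to 36.9 M in each. Of the row numbers, 32891 of 35720 matched the RefSeq gene table. Of the low values, 15.0% to 34.9% were whole multiples (within 0.01) of the most frequent low value, so reads were not recovered and depth is unknown; no counting interval is given.

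Values were divided by the median ratio over 11115 rows above 30 in all libraries, which moved the median difference of all rows from the deposited 0.90 to 0.12. Rows at 1 or more in at least 4 libraries entered the test, on log2(value + 1), with the package limma 3.58.1 under R 4.3.3 (options trend and robust; group as the only term), with Benjamini-Hochberg adjustment and a threshold of 0.05. Differences on this scale understate changes of low genes. The design had foreseen counts as a possibility, and none were found. The 10 genes and all lists were chosen with earlier results of these data known. From the lists of other immediate early and upstream genes, the text names called genes plus the 3 highest and 3 lowest differences, with a mean level of at least 5, taking first those whose groups do not overlap; 1 gene this rule names is not reported here, and others named were chosen after their values were seen. Alternatives were the deposited scale, quantile and upper-quartile scaling, a pseudocount of 10, other filters, limma without the robust option, and leaving out libraries. The labels give no batch.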

Additional observations from a re-analysis of the deposited data

Results flagged for a closer look

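In groups of 4 libraries, a library was taken as standing apart when its gap to the nearest other exceeded, as a share of the group's range, the 95% critical value of Dixon's test. Of 44 groups tested, 5 met this, and 2 of those were among the 20 groups of the main immediate early genes. The nominal rate of the test is about 1 in 20, which is no like yardstick for these counts. The remaining groups came from genes named for large differences, which 1 outlying library can produce. All groups also share the same libraries and are not independent. Egr1 in HFD 23 was 10.66, a gap of 0.921 of the HFD range. Dusp1 in HFD 23 was 10.65, a gap of 0.862 of the range and of 2.58 on the log2 scale. Elk1 in HFD 23 was 10.89, a gap of 0.964 of the range and of 3.14 on the log2 scale. In the ND group, Cebpd was 3.15 in ND 15-17-18 (0.856 of the range) and Atf1 was 8.28 in ND 16 (0.936 of the range).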

How the results depend on the processing

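Under all 16 alternatives with a test, 0 of the 10 immediate early genes were called. The count of all rows called, 3 as reported, was 16 on the deposited scale, 0 without HFD 23 and ND 15-17-18 together, and 0 to 4 with 1 library left out (0 without ND 15-17-18, ND 19 or ND 20). The median difference of the 10 genes, -0.22 as reported, was 0.64 on the deposited scale, -0.51 without HFD 23 and ND 15-17-18 together, and -0.38 (without ND 15-17-18) to -0.05 (without ND 20) with 1 library left out. On the deposited scale the signs of Fos (0.29), Fosb (0.40), Jun (0.76), Junb (0.62), Ier2 (0.66), Ier3 (0.57) and Atf3 (0.85) turned. With ND 15-17-18 left out of the deposited values, an alternative chosen after the data were seen, Jun (0.062) and Atf3 (0.29) were still positive. Of the 10 genes, those whose groups do not overlap numbered 4 without HFD 23 and ND 15-17-18 together (5.92% of all rows with HFD below ND), where Nr4a1 was -0.23, and 0 to 4 with 1 library left out (4 without HFD 23). Leaving out 1 library turned the sign of Jun (-0.27 to 0.021), Ier2 (-0.40 to 0.0084), Atf3 (-0.39 to 0.18) and Nr4a1 (-0.15 to 0.39). Quantile and upper-quartile scaling left 8 differences negative and 2 positive, and Egr1 stayed negative and Dusp1 positive under all 16 alternatives. The causes were not tested. Depth is unknown, so the precision of low rows such as Egr3 and Dusp2 cannot be given. No paired analysis was possible because the groups share no replicate number.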

Other observations

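Heat shock genes, which dissociation also induces, followed the immediate early genes only in part. Of 12, 0 were called in either direction, against 0.0109% of all rows. Their median difference was 0.20 (deposited scale 1.05), or 0.12 without HFD 23. Their median deviation was lowest in HFD 22 (-0.09) and highest in HFD 23 (0.24), as for the 10 genes (-0.54 and 0.56). HFD 26 came next at 0.13, with ND 19 at 0.06 and ND 20 at 0.03, against -0.28, 0.55 and 0.41 for the 10 genes. Hspa1a, an inducible HSP70 gene, had 9.66, 10.52, 9.996 and 9.99 in HFD, against 9.41, 7.56, 9.63 and 8.92 in ND, a difference of 1.16 ± 0.42 (SE, log2; limma adjusted p = 0.389), or 0.72 without ND 16. Its near-identical copy Hspa1b, with which reads may be shared, differed by 1.06 ± 0.36 (adjusted p = 0.352), and both were chosen after their values were seen. HFD 23 was the highest library for both and ND 16 the lowest.

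Early genes of the NF-kB response had 0 of 17 called, against 0.0109% of all rows. Their median difference was 0.31 (deposited scale 0.95), or 0.08 without HFD 23. Cxcl1, Cxcl2, Cxcl10, Ccl2, Ccl20 and Tnf were so low that a stricter filter on low values dropped them. All of these had positive differences, while the other genes of the list went both ways, so the median of 0.31 rests in part on rows near the floor. Cxcl1 and Ccl20 were not tested without HFD 23. Nfkbia, the inhibitor that NF-kB itself induces, differed by 0.09 ± 0.11 (limma adjusted p = 0.770), with 9.38 to 9.48 in HFD and 9.29 to 9.498 in ND. HFD 23, at 9.47, was not set apart in Nfkbia. Nfkbiz, a nuclear member of the same family, had 10.62, 10.50, 10.53 and 10.62 in HFD, against 11.22, 10.95, 10.70 and 11.22 in ND, a difference of -0.46 ± 0.13 (adjusted p = 0.287), while on the deposited scale it was 0.40.

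Further genes, chosen after their values were seen, show both patterns. Dusp2, a nuclear MAP kinase phosphatase, had 2.98, 8.32, 2.25 and 1.43 in HFD, against 0, 2.26, 4.14 and 0 in ND. Cebpb had 7.44, 9.44, 7.98 and 7.47 in HFD, against 6.85, 6.82, 8.25 and 7.95 in ND. HFD 23 was the highest library for both. Myc had 10.59, 10.72, 10.30 and 10.59 in HFD, against 10.08, 10.04, 12.13 and 11.79 in ND, so that ND 19 and ND 20 stood above all others. Mafk, which encodes a small MAF protein, had 9.47, 9.54, 9.37 and 9.59 in HFD, against 10.21, 9.94, 10.57 and 10.38 in ND, a difference of -0.78 ± 0.15 (limma adjusted p = 0.164), while on the deposited scale it was 0.08. The relatives of the 10 genes did not all follow them. Nr4a2 lay between 9.19 and 9.56 in HFD and between 9.20 and 9.53 in ND, a difference of 0.08 ± 0.13, and Btg2 differed by 0.02 ± 0.13.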
